A study of Mus musculus with 4 samples.

Results

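The 9 transcripts described here belong to the surfactant system of the alveolar type 2 cell, and were followed through 4 single-cell RNA libraries of mouse lung adenocarcinoma. They are 4 surfactant proteins (Sftpc, Sftpb, Sftpa1 and Sftpd) and 5 genes of surfactant processing and of the lamellar body (Napsa, Abca3, Lamp3, Lpcat1 and Slc34a2). They were taken by symbol from the matrices, and all 9 were found among 28006 features. The study compared tumours of 2 genotypes in mice of a mixed 129/B6 background. KPF1F2 mice carried floxed Foxa1 and Foxa2, and KP mice carried a floxed and a normal allele of each (Foxa1flox/+, Foxa2flox/+). All mice also carried KrasFSF-G12D, p53frt and Rosa-FSF-CreERT2. Tumours were started with Ad5-mSPC-FlpO, an adenovirus in which the mouse surfactant protein C promoter drives Flp recombinase. The entry point was thus set by the promoter of Sftpc, itself among the genes described. Tamoxifen was given as 4 injections of 120 mg/kg, 10 weeks after initiation, in both genotypes, and tumours were collected at week 12. Cells of each genotype were loaded before (pre-depletion) and after (post-depletion) magnetic removal of cells positive for CD45, a leukocyte antigen, or CD31, an endothelial one. Each of the 4 groups was 1 library, and the labels do not say how many mice it came from or whether both states share mice. With no replicate library no difference could be tested, and every interval below is a 95% interval that covers counting error only.

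Pulmonary surfactant is a film of phospholipid and protein that lowers surface tension in the alveolus. Type 2 cells store it in lamellar bodies, lysosome-related organelles that fuse with the cell surface. The hydrophobic proteins SP-B and SP-C are cut from larger precursors on the way there, whereas SP-A and SP-D are collectins of innate defence that are largely secreted by another route. FOXA1, FOXA2 and NKX2-1 are transcription factors known to bind control regions of several surfactant genes. Tumour cells in this model keep type 2 traits to a varying degree. The transcripts described here are among those traits, but they differed in direction and so are not a single reading of alveolar identity.

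On mouse build GRCm38 the surfactant protein genes are Sftpc at chr14:70520949-70524081 (- strand), Sftpb at chr6:72304610-72314371 (+ strand), Sftpa1 at chr14:41131782-41136452 (+ strand) and Sftpd at chr14:41172214-41185149 (- strand). Sftpa1 and Sftpd lie close together on one chromosome. Of the other 5, Napsa is at chr7:44572380-44586862 (+ strand), Abca3 at chr17:24351950-24410201 (+ strand), Lamp3 at chr16:19653378-19706375 (- strand), Lpcat1 at chr13:73467197-73516422 (+ strand) and Slc34a2 at chr5:53038081-53071664 (+ strand). The counts are per gene and say nothing of single exons.

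The matrices held 47805086 UMIs (unique molecular identifiers, each a counted RNA molecule) in KPF1F2 pre-depletion, 63010016 in KP pre-depletion, 62051171 in KPF1F2 post-depletion and 58986043 in KP post-depletion. Epithelial-like cells numbered 195 in KPF1F2 and 564 in KP pre-depletion, and 1756 in KPF1F2 and 2397 in KP post-depletion. Their summed level of 10 general epithelial markers lay between 9663 and 15821 CPM (counts of a gene relative to all UMIs of the summed cells), against 182 and 206 CPM in the immune-like cells of the KPF1F2 and KP pre-depletion libraries. Clusters c17, c7 and c18 were the 3 with the most KPF1F2 epithelial-like cells, and c29, c24 and c12 those with the most KP cells, so the class held different clusters in each genotype. Clusters with epithelial genes but under 1/3 of their library's median depth were left out, a limit set after the clusters were seen. They held 1.52% of epithelial cells in KPF1F2 and 28.8% in KP pre-depletion, and 10.2% in KPF1F2 and 26.6% in KP post-depletion. Pairs of libraries shared 1 to 4 cell barcodes. The title number of the KPF1F2 pre-depletion library (18385) differs from that of the other 3 (18836).

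The CRE-ERT2 transcript, which Flp switches on, marks cells in which recombination by Flp had taken place. It was seen in 26.2% of epithelial-like cells in KPF1F2 and 44.0% in KP pre-depletion, and in 32.7% in KPF1F2 and 34.3% in KP post-depletion. In immune-like cells it was seen in 0 of 2971 cells in KPF1F2 (which allows a share of up to 0.101%) and in 0.161% in KP pre-depletion. A cell without a CRE-ERT2 UMI may still carry the recombined allele, since the transcript is low (19.3 to 35.6 CPM) and was seen more often in deep cells. It may also be a cell in which Flp had not acted, since the epithelial-like class was not filtered for tumour cells. That class held a cluster led by Ager (113 cells) and another led by Scgb1a1 (92 cells). Comparisons that use all epithelial-like cells, or those without CRE-ERT2, may thus not be among tumour cells alone. The genotype was checked with the added feature Foxa1_2, named after Foxa1 and not described further in the files. Its level in cells with a CRE-ERT2 UMI was 0.480 CPM (1 UMI) in KPF1F2 against 18.03 CPM in KP pre-depletion, and 0.444 CPM in KPF1F2 against 16.9 CPM in KP post-depletion. In cells without a CRE-ERT2 UMI it was 16.9 CPM in KPF1F2 against 15.7 CPM in KP pre-depletion, and 7.16 CPM in KPF1F2 against 16.7 CPM in KP post-depletion. The KPF1F2 cells with CRE-ERT2 are therefore the ones in which this feature was nearly absent. The other Foxa1 feature with counts, Foxa1_1, was at 8.65 CPM in KPF1F2 against 4.69 CPM in KP pre-depletion, and at 9.78 CPM in KPF1F2 against 2.17 CPM in KP post-depletion. The 4 features named after Foxa2 had 0 to 4 UMIs each in these cells of either genotype, so the loss of Foxa2 could not be checked. Nkx2-1, the lineage factor of lung epithelium, was at 175 CPM in KPF1F2 and 167 CPM in KP pre-depletion cells with CRE-ERT2, and at 148 CPM in KPF1F2 and 126 CPM in KP post-depletion.

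Over all epithelial-like cells, whatever their CRE-ERT2 state, the transcripts divided in direction. The 4 surfactant proteins together made up 6.89% of UMIs in KPF1F2 and 13.5% in KP pre-depletion, and 5.46% in KPF1F2 and 10.3% in KP post-depletion. Sftpc was at 51150.1 CPM in KPF1F2 and 112394 CPM in KP pre-depletion, and at 39877 CPM in KPF1F2 and 86711 CPM in KP post-depletion. Its log2 fold (KPF1F2 over KP after adding 1 CPM to both) was -1.14 and -1.12, and both KPF1F2 libraries lay below both KP libraries. Sftpb lay lower in KPF1F2 by less than 2-fold (log2 -0.56 and -0.76). Napsa lay higher (log2 1.08 and 1.59), and so did Sftpd by less than 2-fold (log2 0.44 and 0.95). The other 5 genes had log2 folds between -0.61 and 0.41. Sftpc was the 1 gene of the 9 at least 2-fold lower in both states, and 2.11% of the 5680 genes measured were so. Napsa was the 1 gene at least 2-fold higher in both states, and 2.9% of genes measured were so. The Sftpc call was lost among cells of at least 20000 UMIs (log2 -0.78 post-depletion), and the Napsa call with TMM factors (log2 0.97 pre-depletion). The median log2 fold of the 9 genes was 0.07 and 0.27, and that of all genes 0.09 and 0.08. Levels within a genotype also moved with depletion: the log2 of post-depletion over pre-depletion ran from -0.62 to 0.10 in KPF1F2 and from -0.75 to -0.37 in KP.

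Among cells with a CRE-ERT2 UMI the surfactant proteins separated more widely. This set held 51 cells in KPF1F2 and 248 in KP pre-depletion, and 574 in KPF1F2 and 822 in KP post-depletion. The 4 surfactant proteins made up 0.980% of UMIs in KPF1F2 and 11.1% in KP pre-depletion, and 0.960% in KPF1F2 and 7.56% in KP post-depletion. Sftpc, which encodes the hydrophobic peptide SP-C, was at 4116 CPM in KPF1F2 and 91197 CPM in KP pre-depletion. Post-depletion it was at 4093 CPM in KPF1F2 and 63120 CPM in KP. The level in KP was 22.2 times (21.7 to 22.6) and 15.4 times (15.3 to 15.5) that in KPF1F2. Sftpa1, the collectin SP-A, was at 337 CPM in KPF1F2 and 9124 CPM in KP pre-depletion, and at 503 CPM in KPF1F2 and 5182 CPM in KP post-depletion. KP exceeded KPF1F2 by 27.1 times (25.1 to 29.2) and 10.3 times (10.1 to 10.5). Sftpb, whose product SP-B is needed to form lamellar bodies, was at 2237 CPM in KPF1F2 and 7828 CPM in KP pre-depletion, and at 1938 CPM in KPF1F2 and 5294 CPM in KP post-depletion. Its difference was smaller, with KP at 3.50 times (3.40 to 3.60) and 2.73 times (2.70 to 2.76) the level in KPF1F2. Sftpd, the collectin SP-D, did not share this direction. It was at 3113 CPM in KPF1F2 and 2942 CPM in KP pre-depletion, and at 3064 CPM in KPF1F2 and 1956 CPM in KP post-depletion (log2 0.08 and 0.65), and its direction turned pre-depletion with 2 or more CRE-ERT2 UMIs required (log2 -0.72). Within a genotype the log2 of post-depletion over pre-depletion was -0.01 (KPF1F2) and -0.53 (KP) for Sftpc, and 0.58 (KPF1F2) and -0.82 (KP) for Sftpa1, all smaller in size than the differences between genotypes.

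**Figure D1:**
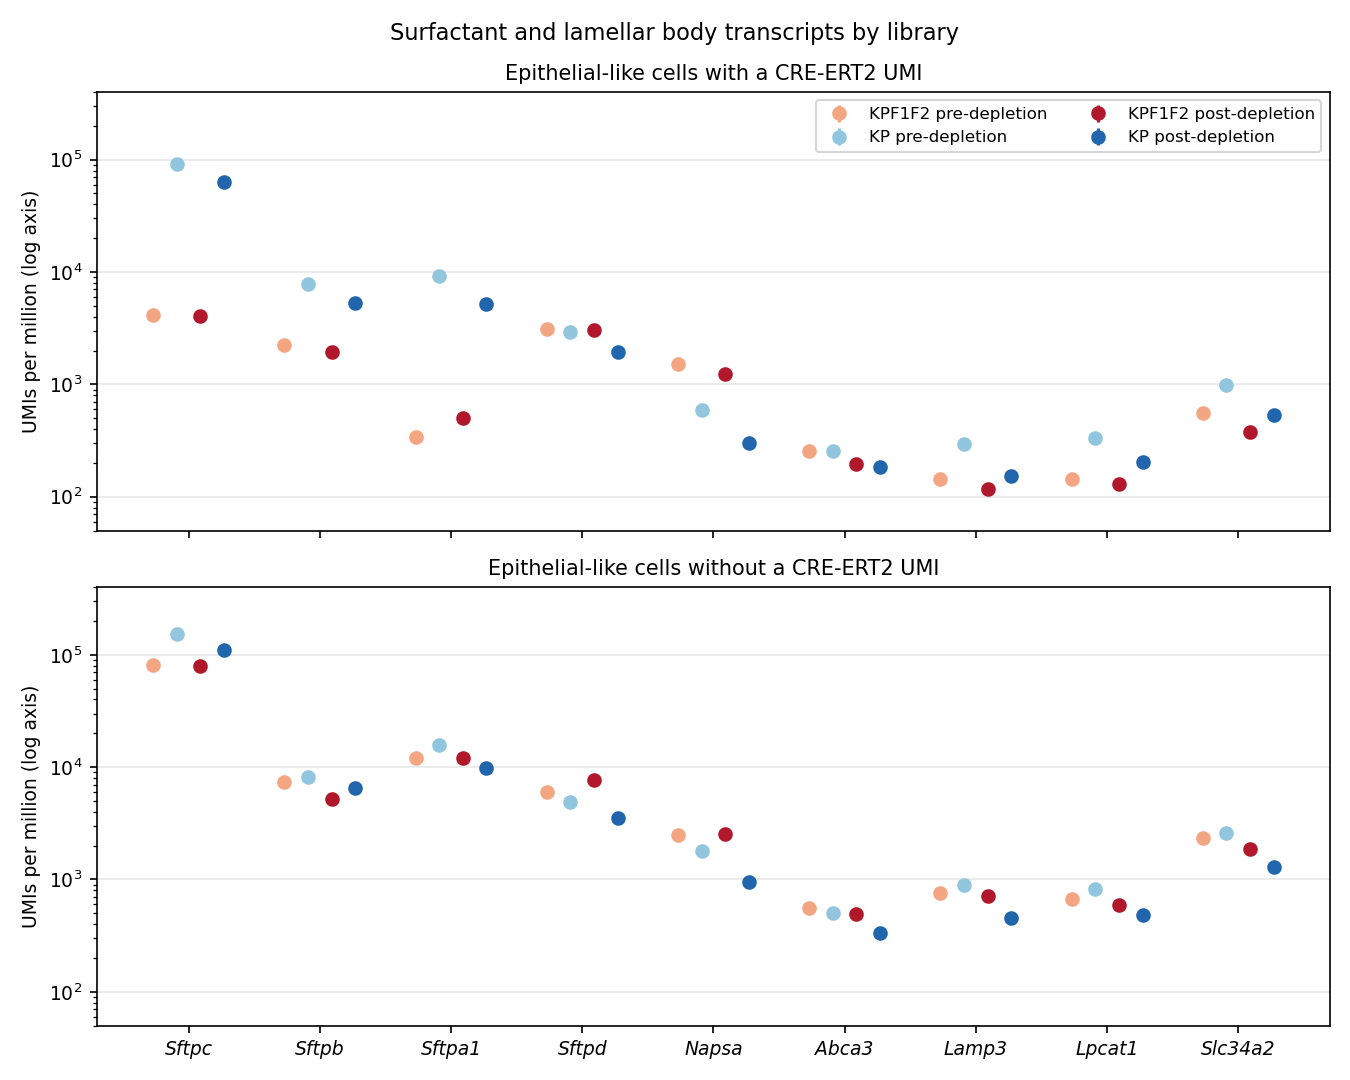
Level in CPM (log axis) of the 9 transcripts in epithelial-like cells with (top) and without (bottom) a CRE-ERT2 UMI, with 1 point per library and 95% counting intervals that are mostly smaller than the points. In the top panel both KPF1F2 points for Sftpc (4116 and 4093) and Sftpa1 (337 and 503) lie more than 10-fold below the KP points, while those of Napsa lie above them.

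The 5 genes of processing and of the lamellar body gave a mixed picture in the same cells. Napsa, an aspartic protease that takes part in cutting the SP-B precursor, was at 1521 CPM in KPF1F2 and 597 CPM in KP pre-depletion, and at 1243 CPM in KPF1F2 and 299.8 CPM in KP post-depletion. KPF1F2 was 2.55 times (2.44 to 2.66) and 4.15 times (4.04 to 4.26) KP, and the log2 fold was 0.73 pre-depletion with 2 or more CRE-ERT2 UMIs required, under 2-fold. Abca3, the phospholipid transporter of the lamellar body membrane, was at 255 CPM in both genotypes pre-depletion, and at 196 CPM in KPF1F2 and 186 CPM in KP post-depletion. The ratio of KPF1F2 to KP was 1.00 (0.910 to 1.10) and 1.05 (1.01 to 1.10). Lamp3, a lamellar body membrane protein, was at 144 CPM in KPF1F2 and 292 CPM in KP pre-depletion, and at 118 CPM in KPF1F2 and 152 CPM in KP post-depletion. Lpcat1, which remodels phosphatidylcholine into the dipalmitoyl form, was at 145 CPM in KPF1F2 and 335 CPM in KP pre-depletion, and at 129.8 CPM in KPF1F2 and 203 CPM in KP post-depletion. Slc34a2, the phosphate cotransporter of the apical membrane, was at 558 CPM in KPF1F2 and 978 CPM in KP pre-depletion, and at 380.2 CPM in KPF1F2 and 529.5 CPM in KP post-depletion. For these last 3 genes KPF1F2 lay lower, by log2 -0.81 to -1.20 pre-depletion and by -0.37 to -0.64 post-depletion, so that none was 2-fold lower in both states.

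Counted over the 9 genes, 3 (Sftpc, Sftpb and Sftpa1) lay 2-fold or more below KP in both states in cells with CRE-ERT2, against 2.97% of the 5796 genes measured. Napsa alone lay 2-fold or more above KP, against 4.07% of genes measured. Pre-depletion the log2 folds of the 9 genes had a median of -1.01 and those of all genes 0.20. Post-depletion the medians were -0.48 for the 9 genes and 0.12 for all. With totals that leave out the 9 genes the median of all genes was 0.04 and 0.03, and the same 3 and 1 genes passed. In cells without a CRE-ERT2 UMI none of the 9 genes passed 2-fold in both states, against 1.43% of 5445 genes for lower and 2.02% for higher. There Sftpc was at 81226 CPM in KPF1F2 and 153588 CPM in KP pre-depletion, and at 80025 CPM in KPF1F2 and 111348 CPM in KP post-depletion. Napsa (log2 0.49 and 1.42) and Sftpd (0.31 and 1.13) also lay higher in KPF1F2 in cells without CRE-ERT2, past 2-fold post-depletion only. Among such cells of at least 20000 UMIs the log2 fold was -0.83 and 0.08 for Sftpc, and 0.32 and 2.52 for Napsa.

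**Figure D2:**
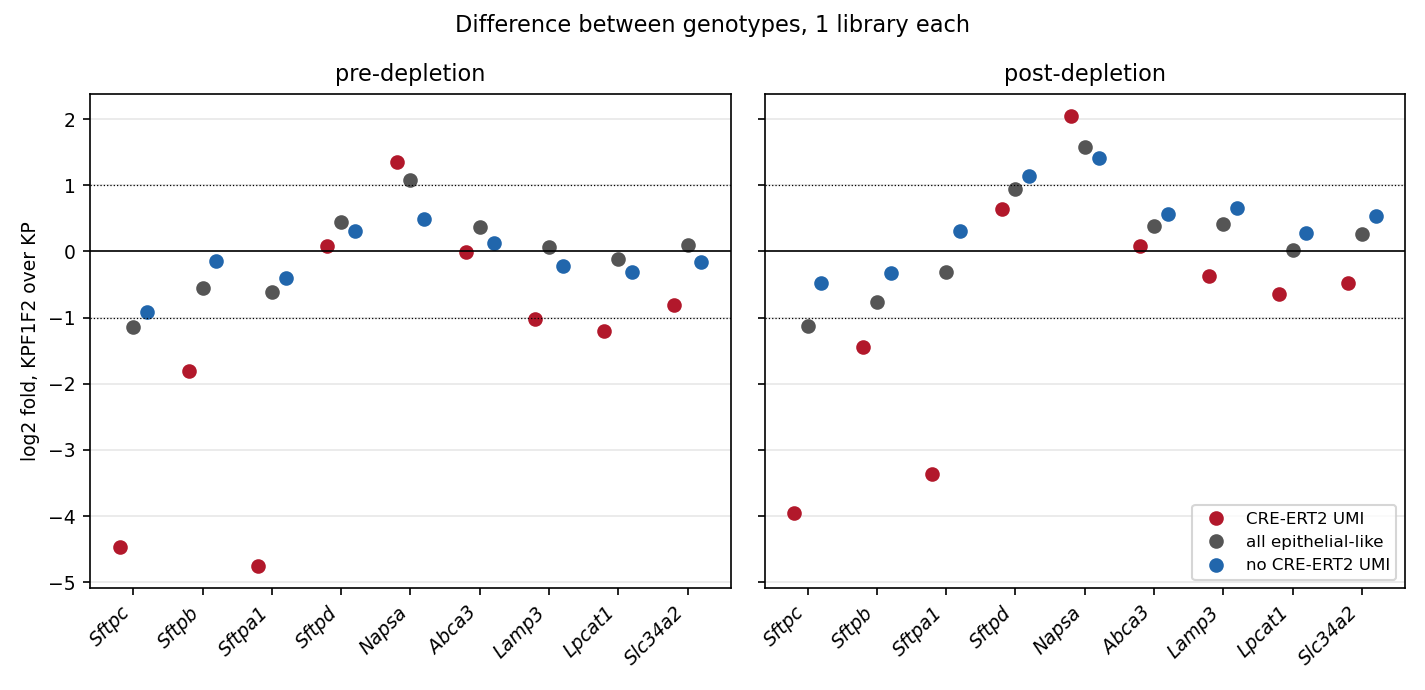
Log2 fold of KPF1F2 over KP for each transcript, by depletion state and by cell set (red, with a CRE-ERT2 UMI; grey, all epithelial-like; blue, without), 1 library per genotype and state, with dotted lines at 2-fold. Sftpc, Sftpa1 and Sftpb fall below the lower line in red in both panels, and Napsa stands above the upper one.

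Promoter windows (250 bases before to 50 after the start site, from RefSeq on GRCm38.p6, the assembly of build mm10) were found for 6 of the 9 genes: Sftpb, Sftpa1, Abca3, Lamp3, Lpcat1 and Slc34a2. The 4 shown span the range of difference: Sftpa1 and Sftpb were lower in KPF1F2 in both states, Lamp3 lay lower by less than 2-fold in one of them, and Abca3 did not separate the genotypes pre-depletion. Capitals mark letters of forkhead motifs (TGTTTAC or TGTTTGC) and of NKX2 motifs (CAAGTG or CTCAAG) on either strand. Each is written 5′ to 3′ on the strand of its gene.

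Sftpa1 (chr14:41131538-41131837, + strand): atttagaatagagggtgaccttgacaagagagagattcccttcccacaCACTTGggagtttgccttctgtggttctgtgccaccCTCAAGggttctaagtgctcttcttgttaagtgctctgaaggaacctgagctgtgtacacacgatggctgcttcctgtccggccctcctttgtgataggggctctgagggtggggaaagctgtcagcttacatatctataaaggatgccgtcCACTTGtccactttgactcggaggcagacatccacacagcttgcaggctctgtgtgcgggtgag

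Sftpb (chr6:72304360-72304659, + strand): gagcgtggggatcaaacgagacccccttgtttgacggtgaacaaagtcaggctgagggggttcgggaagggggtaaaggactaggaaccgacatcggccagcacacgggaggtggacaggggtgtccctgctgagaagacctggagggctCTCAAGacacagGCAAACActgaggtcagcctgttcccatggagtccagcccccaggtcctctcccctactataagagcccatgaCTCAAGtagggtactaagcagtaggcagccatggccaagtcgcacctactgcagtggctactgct

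Lamp3 (chr16:19706316-19706615, - strand): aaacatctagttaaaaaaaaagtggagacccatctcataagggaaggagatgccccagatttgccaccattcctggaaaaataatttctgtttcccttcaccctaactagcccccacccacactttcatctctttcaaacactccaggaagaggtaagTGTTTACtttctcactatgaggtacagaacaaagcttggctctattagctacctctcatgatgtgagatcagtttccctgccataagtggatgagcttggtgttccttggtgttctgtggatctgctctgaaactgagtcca

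Abca3 (chr17:24351773-24352072, + strand): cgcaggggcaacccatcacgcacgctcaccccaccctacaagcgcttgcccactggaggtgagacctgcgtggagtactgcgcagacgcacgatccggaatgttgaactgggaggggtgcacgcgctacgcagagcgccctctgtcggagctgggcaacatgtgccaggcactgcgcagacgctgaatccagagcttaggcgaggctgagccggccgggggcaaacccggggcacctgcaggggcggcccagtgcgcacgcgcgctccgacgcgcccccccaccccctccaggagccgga

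The Sftpa1 window held 3 NKX2 matches and 0 forkhead matches. The Sftpb window held 2 NKX2 matches and 1 forkhead match, TGTTTGC on the opposite strand. The Lamp3 window held 1 forkhead match, TGTTTAC, and the Abca3 window held none of either kind. The Lpcat1 and Slc34a2 windows, not shown, also held 0 matches of either kind. Both genes lay lower in KPF1F2 cells with CRE-ERT2 (log2 -1.20 and -0.64 for Lpcat1, -0.81 and -0.48 for Slc34a2). The Slc34a2 window (chr5:53049103-53049402) lies inside the gene span given above. It belongs to a start site other than the printed gene start, which was not searched. Of the 6 windows, 2 thus held a forkhead match and 2 an NKX2 match, and matches were not tested against the differences. Of the 32851 windows in the table, 8.48% held a forkhead match and 26.4% an NKX2 match by these letters. By single motif the shares were 3.65% for TGTTTAC, 5.07% for TGTTTGC, 13.6% for CAAGTG and 15.9% for CTCAAG, and the last pair shares the letters CAAG and can overlap. Letters of C/EBP motifs (TTGCGCAA, in 0.183% of windows, which is a special case of TTGCNNAA, in 10.8%) were found in Slc34a2 only among the 6, and GATA letters (AGATAA, in 11.2%) in none of the 6. A match is a string of letters and not a measured site.

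Within each library, cells with a CRE-ERT2 UMI had lower levels of all 9 transcripts than cells without one, in both genotypes, but the size differed between transcripts. How far this split parts tumour cells from epithelial cells in which Flp had not acted was not tested. In KPF1F2 the log2 of detected over not detected was -4.30 pre-depletion and -4.29 post-depletion for Sftpc, and -5.15 and -4.58 for Sftpa1. In KP it was -0.75 and -0.82 for Sftpc, and -0.79 and -0.91 for Sftpa1. Sftpb gave -1.73 and -1.44 in KPF1F2, and -0.06 and -0.31 in KP. Napsa gave -0.71 and -1.02 in KPF1F2, and -1.57 and -1.65 in KP, over cells of any depth. In both KPF1F2 libraries 7 of the 9 genes (all but Sftpd and Napsa) were at least 2-fold lower with CRE-ERT2, against 2.51% of 5690 genes measured, and 0 were higher, against 5.13%. In both KP libraries 4 of the 9 (Napsa, Lamp3, Lpcat1 and Slc34a2) were at least 2-fold lower, against 1.13% of 5555 genes, and 0 were higher, against 0.828%. Cells with CRE-ERT2 were the deeper ones, with medians of 21102 to 36287 UMIs, against 10893 to 18143 UMIs in cells without. Among cells of at least 20000 UMIs the Sftpc log2 was -4.73 and -4.51 in KPF1F2, and -0.85 and -0.56 in KP. In KPF1F2 Sftpd then passed 2-fold in both libraries (-1.14 and -1.47). In KP 3 of the 4 calls were lost through the post-depletion library, where Napsa gave -0.99, Lpcat1 -0.79 and Slc34a2 -0.76, and Lamp3 alone stayed past 2-fold (-1.58 and -1.10). Napsa in these deep cells gave -0.86 and -1.10 in KPF1F2, and -1.67 and -0.99 in KP, so its order between genotypes turned post-depletion.

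UPRT_short, an added feature present in KPF1F2 cells and absent from KP, gave a second split of the KPF1F2 libraries. It was seen in 40 cells pre-depletion and 455 post-depletion, and in 0 of 564 and 0 of 2397 epithelial-like KP cells (which allows up to 0.532% and 0.125%). What it marks is not given in the sources used here. In KPF1F2 immune-like cells it was seen in 1.08%. All 9 transcripts were at least 2-fold lower in KPF1F2 cells with UPRT_short than in those without, against 4.3% of 5715 genes measured, and 0 were higher, against 5.7%. Sftpc was at 989 CPM with and 73968 CPM without UPRT_short pre-depletion, and at 5367 CPM with and 61906 CPM without it post-depletion. Sftpd, which did not reach 2-fold in both KPF1F2 libraries in the CRE-ERT2 split, was at 2037 CPM with and 6210.2 CPM without it pre-depletion, and at 1744 CPM with and 7509 CPM without it post-depletion. Cells with both features (24 and 288) had the lowest share of UMIs in the 4 surfactant proteins, 0.481% and 0.485%. Cells with neither (128 and 1015) had 11.9% in each library. Depth differed here too, with medians of 34940.5 and 31479 UMIs in cells with UPRT_short, against 18612 and 16944 in those without. Among cells of at least 20000 UMIs the log2 of with over without UPRT_short was -7.11 pre-depletion and -3.61 post-depletion for Sftpc. For Napsa it was -1.27 and -1.63.

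In deep cells (at least 20000 UMIs) levels were lower in cells with more CRE-ERT2 UMIs, with the steepest step in KPF1F2. In KPF1F2 post-depletion Sftpc was at 92767 CPM in cells with no CRE-ERT2 UMI, 7763 CPM with 1, 3498 CPM with 2 and 2029 CPM with 3 or more. In KP post-depletion it was at 87995, 84932, 59735 and 32092 CPM in the same order. Sftpa1 in KPF1F2 post-depletion was at 13949, 1238, 207 and 165 CPM, and in KP post-depletion at 7099, 6812, 4895 and 2305 CPM. Post-depletion the step from 0 to 1 UMI was thus over 10-fold for both genes in KPF1F2 and slight in KP. Pre-depletion, the share of UMIs in the 4 surfactant proteins went from 12.2% to 1.41% over this step in KPF1F2, and from 19.8% to 15.6% in KP. Sftpb in KP post-depletion did not follow the trend until the last step, at 5662, 5939, 5932 and 3507 CPM. Sftpd in KPF1F2 post-depletion went more evenly, at 8060, 5277, 3614 and 1164 CPM, and so did Napsa, at 2542, 2056, 1449 and 535 CPM. Depth was higher in these cells too, with medians of 30948, 35261, 39897 and 53410 UMIs in KPF1F2 post-depletion, and its part in these trends was not tested. The KPF1F2 pre-depletion points with 2, and with 3 or more UMIs, rest on 7 and 9 cells.

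**Figure D3:**
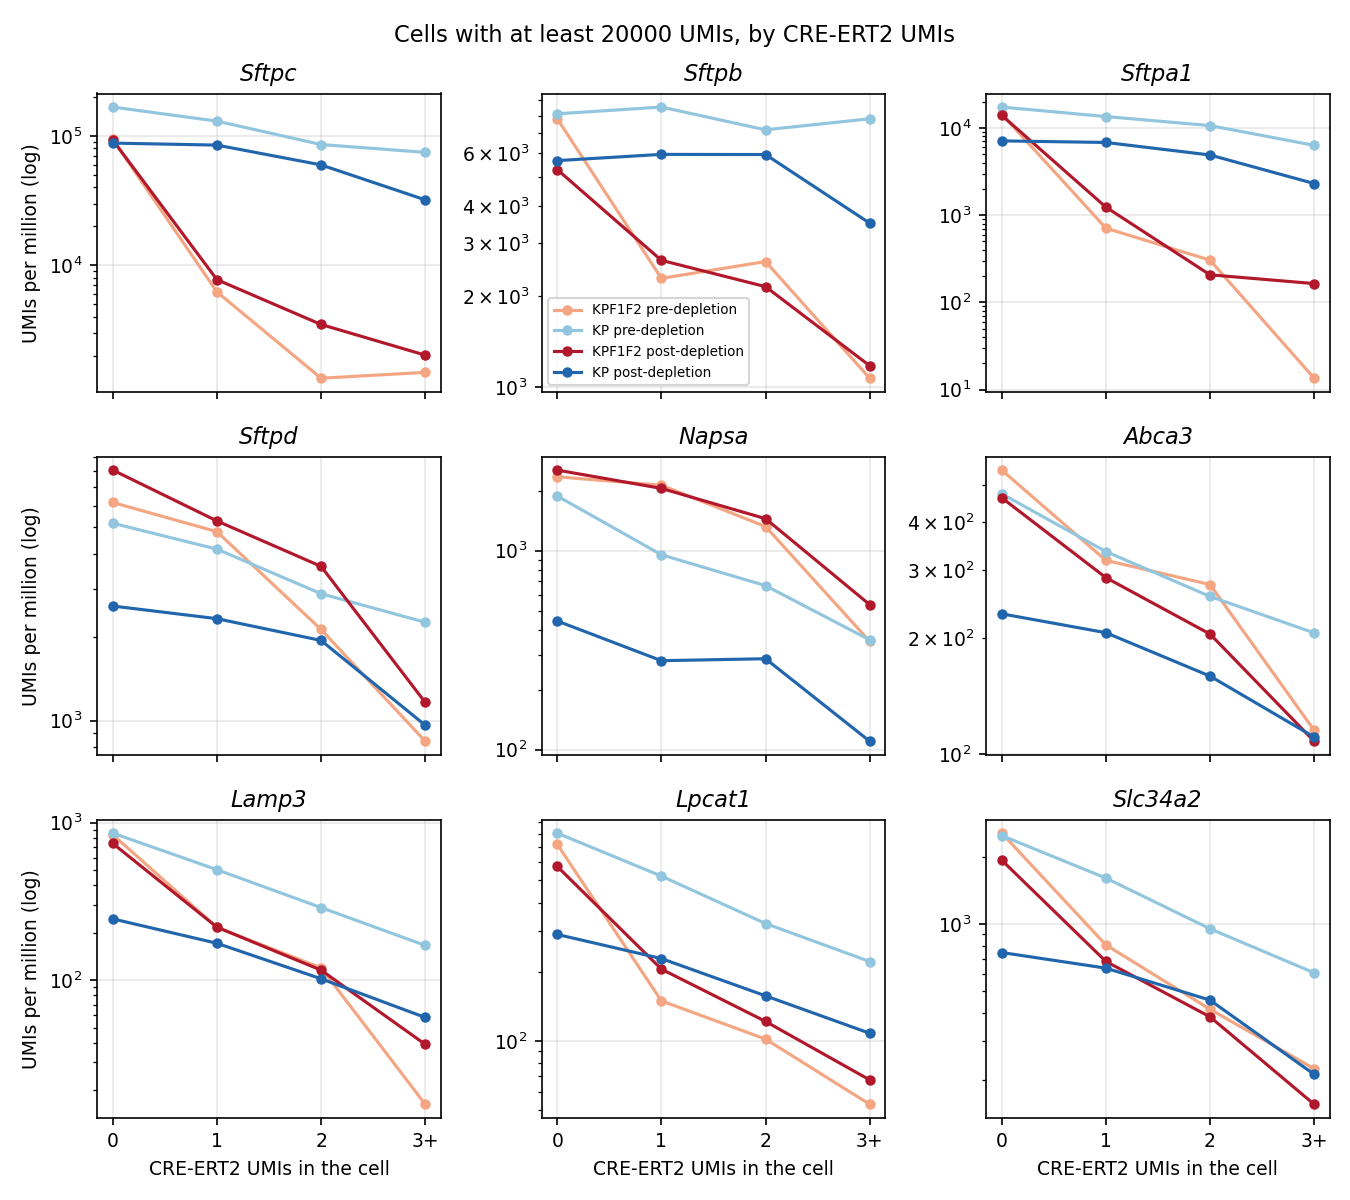
Level in CPM (log axis) of each transcript in epithelial-like cells of at least 20000 UMIs, by number of CRE-ERT2 UMIs in the cell, 1 line per library. For Sftpc the KPF1F2 post-depletion line drops from 92767 at 0 to 7763 at 1 UMI, whereas the KP post-depletion line goes from 87995 to 84932.

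Levels per cell showed that the sums for Sftpc and Sftpa1 in KPF1F2 rested on few cells. Where CRE-ERT2 was detected, the median Sftpc level was 0.875 UMIs per 10000 in KPF1F2 and 547 in KP pre-depletion, and 2.29 in KPF1F2 and 147 in KP post-depletion. The 10% of these cells with the highest level held 82.9% and 89.6% of the summed Sftpc level in KPF1F2, against 30.1% and 38.3% in KP. For Sftpb the median was 17.2 in KPF1F2 and 78.8 in KP pre-depletion, and 8.19 in KPF1F2 and 51.0 in KP post-depletion, and the highest 10% held 43.1% and 45.8% in KPF1F2 and 24.1% and 29.3% in KP. For Napsa the order turned, with medians of 11.9 in KPF1F2 and 0.979 in KP pre-depletion, and 6.92 in KPF1F2 and 0.289 in KP post-depletion.

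Free RNA, released from other cells into the droplets, sets a floor to such values, and it was not the same in every library. T cell-like cells, which do not make Sftpc, held 85.2 CPM in KPF1F2 and 1189 CPM in KP pre-depletion, and fibroblast-like cells held 471 CPM in KPF1F2 and 2668 CPM in KP post-depletion. The median KPF1F2 cell with CRE-ERT2 therefore lay near the T cell-like level pre-depletion and under the fibroblast-like level post-depletion. After thinning every cell to 5000 UMIs, 46.0% of KPF1F2 cells with CRE-ERT2 had a Sftpc UMI pre-depletion, against 91.8% in KP, while 21.4% of T cell-like cells had one in KPF1F2 and 95.7% in KP. At full depth the shares were 84.3% of KPF1F2 cells and 100% of KP cells with CRE-ERT2 (median 32671 and 36287 UMIs), against 25.2% of KPF1F2 and 98.9% of KP T cell-like cells (median 4100 and 4846 UMIs). A Sftpc UMI alone is thus background in KP. Cells were therefore also counted above the 95th percentile of the T cell-like (pre-depletion) or fibroblast-like (post-depletion) cells of their own library, a measure added after these levels were seen. Above it for Sftpc were 36.0% (22.9 to 50.8) of KPF1F2 and 72.2% (66.2 to 77.8) of KP cells with CRE-ERT2 pre-depletion, and 22.4% (19.0 to 26.0) of KPF1F2 and 55.7% (52.2 to 59.2) of KP post-depletion. For Sftpa1 the shares were 16.0% in KPF1F2 and 65.3% in KP pre-depletion, and 15.5% in KPF1F2 and 47.2% in KP post-depletion. For Napsa they were 68.0% in KPF1F2 and 38.8% in KP pre-depletion, and 56.0% in KPF1F2 and 22.1% in KP post-depletion. Sftpd gave shares close to each other, 74.0% in KPF1F2 and 71.8% in KP pre-depletion, and 59.7% in KPF1F2 and 57.9% in KP post-depletion. The floor was higher in KP, 10 and 27 UMIs of Sftpc per 5000, than in KPF1F2, 1 and 5. For Sftpa1 it was 2 and 3 UMIs in KP and 0 and 1 in KPF1F2. For Sftpd it was 1 and 2 in KP and 0 and 1 in KPF1F2. The shares of these 3 genes were thus taken at unlike cut-offs in the 2 genotypes, whereas the Napsa floor was 1 UMI in each library.

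**Figure D4:**
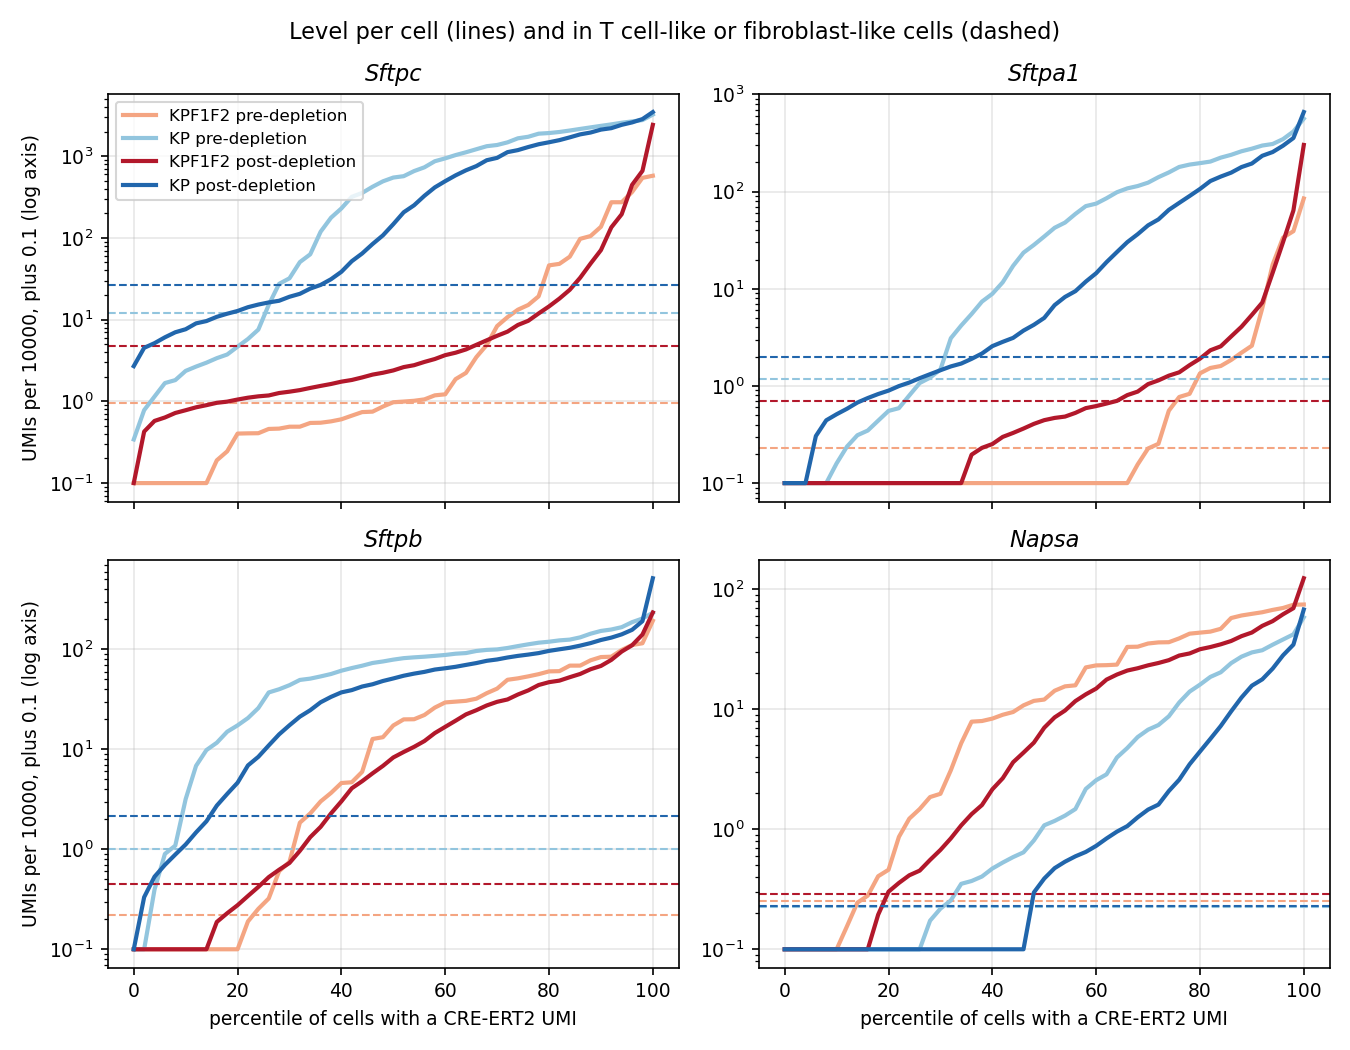
Level per cell (UMIs per 10000, plus 0.1, log axis) of 4 transcripts against the percentile of epithelial-like cells with a CRE-ERT2 UMI, 1 line per library, with the mean level in T cell-like (pre-depletion) or fibroblast-like (post-depletion) cells of the library dashed. For Sftpc the KPF1F2 lines stay near or under their dashed line up to the 60th percentile, while for Napsa they lie above the KP lines from about the 20th percentile upwards.

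In immune-like cells of the pre-depletion libraries, 5 of the 8 transcripts other than Sftpc lay near the level set by their epithelial ratio to Sftpc, and 3 lay far above it. Free RNA from epithelial cells should keep its genes in the ratio they have there, so each level was set against that given by Sftpc, whose own value is 1 by construction. Sftpc over all immune-like cells was at 81.2 CPM in KPF1F2 and 524 CPM in KP, or 0.159% and 0.466% of the epithelial-like level. Sftpb, Sftpa1, Sftpd, Lamp3 and Slc34a2 lay between 0.672 and 1.23 times the level set by Sftpc in KPF1F2 and between 0.778 and 1.20 times in KP. Napsa was at 153 CPM in KPF1F2 and 160.1 CPM in KP, 45.5 and 34.4 times the level set by Sftpc. Abca3 was at 46.8 CPM in KPF1F2 (67.2 times) and 47.5 CPM in KP (29.9 times). Lpcat1 was at 22.4 CPM in KPF1F2 (30.6 times) and 28.9 CPM in KP (12.4 times). These 3 differed between the genotypes far less than Sftpc did. By class, Napsa was at 749 CPM in KPF1F2 and 1057 CPM in KP in monocyte-like cells, at 642 CPM in KPF1F2 and 664 CPM in KP in B cell-like cells, and at 15.1 CPM in KPF1F2 and 12.3 CPM in KP in T cell-like cells. Abca3 was at 59.9 CPM in KPF1F2 and 56.8 CPM in KP in alveolar macrophage-like cells. Lpcat1 was at 66.4 CPM in KPF1F2 and 84.4 CPM in KP in migratory dendritic-like cells. Lamp3, known in human as a marker of mature dendritic cells, was seen in these migratory dendritic-like cells with 0 UMIs in KPF1F2 and 1 UMI in KP, which the level set by Sftpc would also give. Napsa in fibroblast-like cells post-depletion was at 19.1 CPM in KPF1F2 and 12.9 CPM in KP, 0.877 and 0.681 times the level set by Sftpc.

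**Figure D5:**
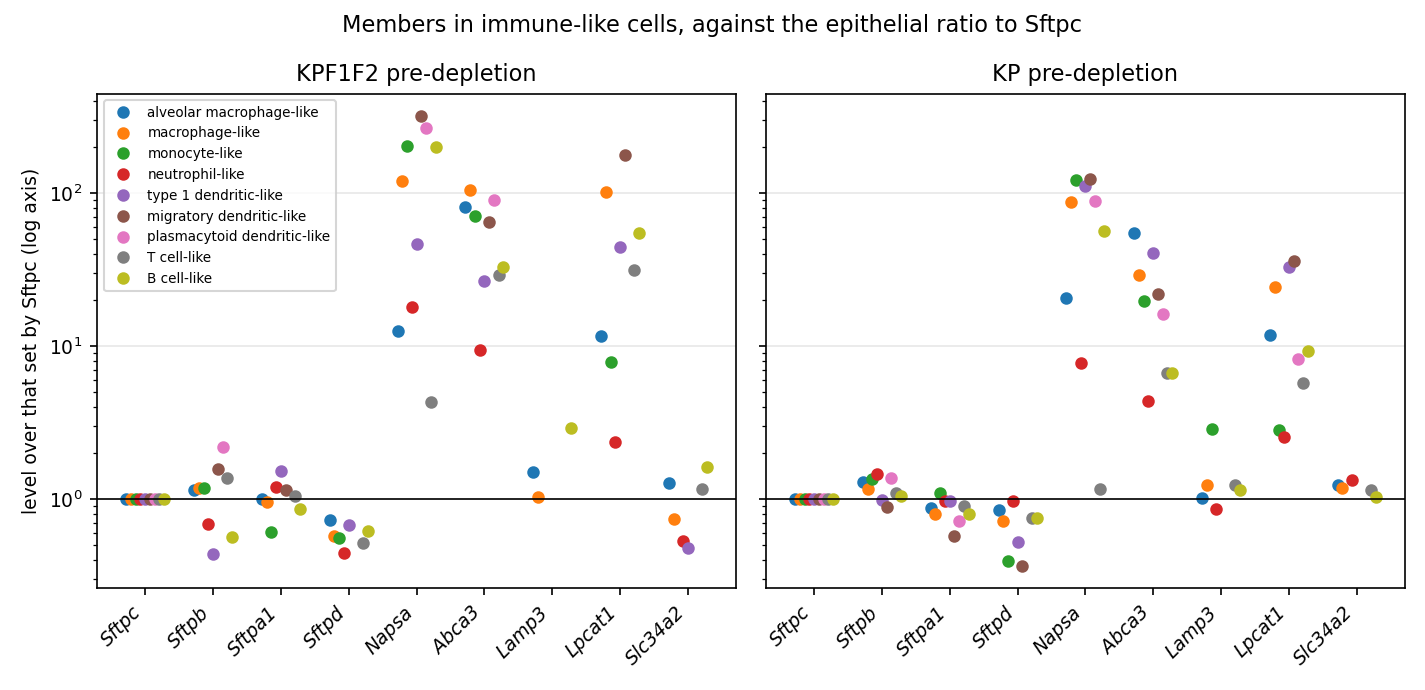
Level of each transcript in immune-like classes of the pre-depletion libraries (KPF1F2 left, KP right), divided by the level that the epithelial ratio to Sftpc would give (log axis), points of 3 or more UMIs. Sftpb, Sftpa1, Sftpd, Lamp3 and Slc34a2 scatter around 1, and Napsa, Abca3 and Lpcat1 lie above it, least so for Napsa in T cell-like cells.

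Across cells the transcripts moved together to different degrees. Over epithelial-like cells thinned to 5000 UMIs (1461 in KPF1F2 and 2127 in KP post-depletion), Sftpc correlated with Sftpa1 at Pearson r = 0.85 in KPF1F2 and 0.79 in KP, and with Slc34a2 at 0.79 in KPF1F2 and 0.80 in KP. Its correlation with Sftpd was 0.59 in KPF1F2 and 0.81 in KP, and that of Sftpd with Napsa was 0.84 in KPF1F2 and 0.62 in KP. These cells share a library, its free RNA and its depth, and the values are a description. Correlations with Sftpc were ranked among 8468 genes, a count that includes the 9 transcripts. Other than these 9, the genes most like Sftpc in both post-depletion libraries (1756 and 2397 cells, unthinned) were Cxcl15 (r = 0.81 in KPF1F2 and 0.78 in KP), Lyz2, Lgi3, Fasn, Scd1 and Rnase4. Krt7, Krt8 and S100a6 were the most opposed, with r from -0.65 to -0.70 in KPF1F2 and from -0.71 to -0.79 in KP.

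Other genes of surfactant metabolism were counted in cells with CRE-ERT2. Of all genes measured there, 4.07% were at least 2-fold higher and 2.97% lower in both states. Of 15 measured genes of phospholipid synthesis and turnover, 2 lay 2-fold or more below KP in both states and 0 above. These were Pla2g1b, a secreted phospholipase, at 2.40 CPM in KPF1F2 and 79.6 CPM in KP pre-depletion and 4.08 CPM in KPF1F2 and 51.0 CPM in KP post-depletion, and Fabp5, a fatty acid binding protein (log2 -2.79 and -1.89). Lpin2, a phosphatidate phosphatase, gave log2 -1.59 and -0.63, and Scd1, the stearoyl desaturase, 0.76 and 1.66. Of 24 measured genes of protein processing and lamellar body trafficking, 1 was higher, the vesicle SNARE Vamp2 (log2 1.21 and 1.04), and 0 were lower. There Muc1 gave 1.06 and 0.99, Adgrf5, a receptor that controls the surfactant pool, 0.61 and 0.73, and the purinergic channel P2rx4 -0.81 and -1.34. Over all epithelial-like cells the phospholipid list had 20 measured genes with 1 higher (Scd1) and 0 lower, and the processing and trafficking list had 24 with 0 in either direction. The shares of all genes measured were 2.9% higher and 2.11% lower in that set. In cells with CRE-ERT2 the median log2 fold of these lists was -0.25 and -0.23 for the first and 0.36 and 0.23 for the second.

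The 10 other type 2 genes, all measured, split in direction in cells with CRE-ERT2. In both states 3 were at least 2-fold higher in KPF1F2 (S100g, Chil1 and Mlc1) and 4 lower (Cxcl15, Hc, Lgi3 and Egfl6). S100g, a calcium-binding protein, was at 928 CPM in KPF1F2 and 317 CPM in KP pre-depletion, and at 988 CPM in KPF1F2 and 173 CPM in KP post-depletion. Hc, complement component C5, was at 24.5 CPM in KPF1F2 and 148 CPM in KP pre-depletion, and at 17.8 CPM in KPF1F2 and 87.8 CPM in KP post-depletion. Chil1 gave log2 1.01 and 1.28, and Mlc1 1.31 and 1.37. Egfl6 gave -1.54 and -1.75, Cxcl15 -1.89 and -1.15, and Lgi3 -1.12 and -1.35. Over all epithelial-like cells the count was different, with 4 genes higher (S100g, Chil1, Cd36 and Mlc1) and 0 lower. There Cxcl15 gave 0.48 and 0.66, and Hc 0.08 and 0.77, the opposite direction to that in cells with CRE-ERT2. Of 18 measured transcription factors of surfactant genes or type 2 cells, 1, the Hippo pathway factor Tead1, was higher (log2 1.12 and 1.48) and 0 were lower. Over all epithelial-like cells 0 of these 18 passed in either direction. With CRE-ERT2, Hopx gave 1.08 and 0.74, Elf3 1.20 and 0.74, and Elf5 -0.39 and -1.21. Hopx was also among the listed markers of type 1 alveolar cells, so its rise is not one of a type 2 factor alone. The shares of all genes past 2-fold in these cells were 4.07% higher and 2.97% lower, as above. Over all epithelial-like cells they were 2.9% higher and 2.11% lower.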

How the data were processed

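The 4 single-cell RNA libraries, 1 per group, were analysed from the deposited UMI count matrices. Per the file headers these counts were made by Cell Ranger 6.0.0, per the submitters' processing notes the build was mm10, and per the labels' protocols libraries were 10x Genomics 3′ version 3.1. Which annotation was used, and how strand was treated, is not given in the sources used here, so a gene and an antisense partner cannot be told apart. Cells with at least 1000 UMIs, 500 genes and at most 20% mitochondrial UMIs were kept. The Scrublet caller of scanpy 1.11.5 flagged fewer than 0.5% of the cells, so the highest-scoring 0.8% per 1000 barcodes were removed instead (131, 181, 91 and 247 cells in KPF1F2 pre-depletion, KP pre-depletion, KPF1F2 post-depletion and KP post-depletion). That left 3377, 3616, 2475 and 3375 cells. Cells were clustered with 2000 variable genes, 30 components, 15 neighbours and Leiden resolution 1 (igraph 0.11.9) without batch correction, and named from listed markers.

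UMIs were summed per library and cell set, scaled to CPM and compared as log2 ratios with 1 CPM added. Genes with a mean of at least 20 CPM counted as measured. Intervals are exact Poisson for levels, conditional binomial for ratios and Clopper-Pearson for shares. A count of 0 was given a limit of 3 counts. The added features carry names but no description in the files. TMM factors came from edgeR 4.0.16 and size factors from DESeq2 1.42.0, as alternatives only. The fold calculation was tested on simulated data. Named genes were the 9 transcripts, per other list the 3 with the largest fold shared by both states in the direction that more of its genes share, and the 1 largest in the other direction, and the 6 most like Sftpc. Genes behind counts of 5 or fewer were also named, after their values were seen. The 9 genes, lists and tests were chosen with earlier results of these data known. Positions and windows come from GENCODE and RefSeq for GRCm38.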

Additional observations from a re-analysis of the deposited data

Results flagged for a closer look

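One result was listed because its sign was the same in both libraries of a genotype and opposite between genotypes. The log2 of the Foxa1_2 level in cells with over without a CRE-ERT2 UMI was -3.60 in KPF1F2 pre-depletion and 0.19 in KP pre-depletion, and -2.50 in KPF1F2 post-depletion and 0.0136 in KP post-depletion. Both KP ratios, 1.15 (0.902 to 1.47) and 1.01 (0.870 to 1.17), were within counting error of 1, so KP showed no detectable difference in either direction. Among cells of at least 20000 UMIs the KP post-depletion value was -0.08. The difference between genotypes was not tested. None of the 9 surfactant and lamellar body genes had opposite signs in this split.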

How the results depend on the processing

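No paired analysis was possible because each group holds 1 library. Each of the 14 log2 folds of 2-fold size or more among the 36 kept its sign under every alternative run. In cells with a CRE-ERT2 UMI, Sftpc, Sftpb and Sftpa1 stayed at least 2-fold lower in both states under all 18 alternatives. Lpcat1 joined them with the immune-like level subtracted and Slc34a2 with cells chosen by UPRT_short in KPF1F2, which made 4 genes. The subtracted level rested in KP post-depletion on 1 T cell-like, 1 macrophage-like and 2 neutrophil-like cells. For Napsa, Abca3 and Lpcat1 the immune-like level lay far above that set by Sftpc pre-depletion, so it may hold more than free RNA. That setting also gave the lowest post-depletion log2 fold of Abca3 (-0.61). The count of genes at least 2-fold higher was 0 in place of 1 (Napsa) with 2 or more CRE-ERT2 UMIs and with KPF1F2 cells chosen by UPRT_short, where the lowest Napsa log2 fold was 0.73 pre-depletion. Over all epithelial-like cells the count higher was 0 in place of 1 with TMM factors, DESeq2 size factors, totals without the 9 genes and cells of at least 20000 UMIs. The count lower was 0 in place of 1 (Sftpc) with cells of at least 20000 UMIs (log2 -0.78 post-depletion) and without the clusters led by Scgb1a1 or Ager, an alternative added after seeing the data. The other additions were keeping the shallow clusters and subtracting the fibroblast-like level, and neither moved a count. For Sftpd in cells with CRE-ERT2 the sign changed with the setting (log2 -0.72 to 0.26 pre-depletion and -0.17 to 0.87 post-depletion), and for Abca3 too (-0.40 to 0.29 and -0.61 to 0.18). The cause was not tested. The KPF1F2 pre-depletion library limits precision most, with 51 such cells.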
